A study of Mus musculus with 12 samples.

Results

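Untreated Nos2-/- macrophages were compared with untreated WT macrophages to ask what cells with and without the inducible nitric oxide synthase share before any inflammatory stimulus and what differs. The comparison was between all 3 untreated arrays of each genotype, 6 of the 12 arrays of the study, while the spread was estimated from all 12. Every probe set that names exactly 1 gene was tested, 34945 in all, and for each of 18193 genes the probe set brightest on average across the 12 arrays stood for the gene. At a Benjamini-Hochberg adjusted p under 0.05 from limma, 1 gene was higher in Nos2-/- cells and 1 was lower. These were Tlcd2, with a log2 fold change of 0.81, and Xaf1, with a log2 fold change of -0.87 on the probe set that stood for it. The direction for Xaf1 was not settled, since its other probe set was 6.18 higher in Nos2-/- cells and the mean of both gave 2.66, so that averaging probe sets per gene left 2 genes higher and 0 lower. With the spread taken from the 6 untreated arrays alone, 0 genes were called higher and 0 lower, beside the 728 with an unadjusted p under 0.05 in the fit over 12 arrays. The genes called there made up 0.0110% of those tested. In contrast, the 95% confidence interval of the difference lay wholly within 1.5-fold for 18005 genes, or 98.97%.

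The cells were bone marrow-derived macrophages (BMDMs), which grow from bone marrow cells in medium with the growth factor M-CSF, here at 20 ng/mL. WT mice were C57BL/6 and Nos2-/- mice were B6.129P2-Nos2tm1Lau/J, both 6 to 10 weeks old. That strain name denotes a targeted Nos2 allele made in 129P2 stem cells and carried on C57BL/6, so the loss of Nos2 and any 129P2 sequence inherited with the allele cannot be told apart in these groups. After 6 days of culture the untreated cells received vehicle (PBS) for 8 h, although the sample labels describe them as taken before stimulation. Stimulated cells of both genotypes, 3 arrays each, received IFNγ at 50 ng/mL together with LPS at 100 ng/mL over the same time, and are used below to see whether a difference at rest was also present in other arrays. They also entered the estimate of the spread and the choice of the probe set for each gene, so the p-values at rest were not independent of them. Expression was read on Affymetrix mouse arrays, 1 per sample. The values are log2 RMA signals, and a log2 fold change is Nos2-/- minus WT. The labels call the 3 samples of a group biological replicates without tying them to separate mice, so p-values measure the spread between these samples. There are no detection calls, and RMA compresses differences between dim signals.

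NOS2 makes nitric oxide (NO) and citrulline from arginine. Resting macrophages hold little of it, and bacterial products together with IFNγ are known to induce it. NO binds heme and iron-sulfur clusters and nitrosates thiols, and it is known in macrophages as a microbicidal product and an inhibitor of mitochondrial respiration. A comparison before stimulation therefore describes the state from which both genotypes respond.

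The Nos2 probe set gave 5.45, 5.40 and 5.65 in untreated WT arrays and 5.15, 5.41 and 5.36 in untreated Nos2-/- arrays. The groups overlapped, with a log2 fold change of -0.19 and an adjusted p of 1.00 from limma. After stimulation it read 9.73, 9.81 and 9.64 in WT arrays but 7.74, 7.45 and 7.88 in Nos2-/- arrays. Whether its probes fall within the stretch removed in the targeted allele is not known from the annotation, and the genotype was therefore not checked with it.

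The general similarity of the genotypes was seen at the level of arrays and of genes. Across genes, the 6 pairs of untreated arrays of the same genotype correlated at 0.99757 to 0.99863 and the 9 pairs of different genotype at 0.99773 to 0.99844, and these ranges overlapped. The median size of the log2 fold change was 0.0546, its 99th percentile was 0.285, and the 95% interval reached a median of 0.185 to either side. By the probe set that stood for each gene, 5 genes differed by more than 1.5-fold and 0 by more than 2-fold, although the other Xaf1 probe set differed by 72.5-fold in the opposite direction. Besides Tlcd2 and Xaf1 these were Egr1 (-0.75), Gpr34 (-0.68) and Tcstv3 (-0.61), which were named after their values were seen and did not pass the test. An unadjusted p under 0.05 was found for 728 genes, or 4.0%, of which 355 (1.95%) were higher and 373 (2.05%) lower in Nos2-/- cells. The 3 arrays of one genotype did not overlap those of the other for 2299 genes, or 12.6%.

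**Figure D1:**
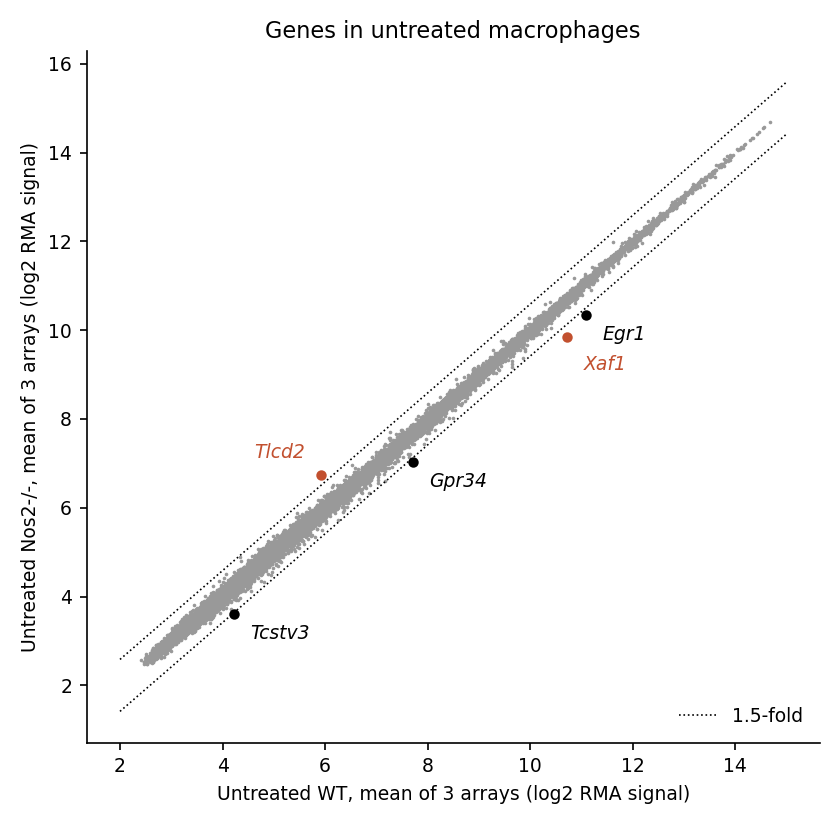
Mean log2 RMA signal of each of 18193 genes in the 3 untreated WT arrays (horizontal axis) and the 3 untreated Nos2-/- arrays (vertical axis), with dotted lines at a 1.5-fold difference. The 5 genes outside the lines are labelled, and the called genes Tlcd2 and Xaf1 are in colour.

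Tlcd2 encodes a membrane protein with a TLC domain that is known to affect the fatty acid make-up of membrane phospholipids. Its only single-gene probe set, 1432282_a_at, gave 5.85, 6.00 and 5.93 in untreated WT arrays and 6.87, 6.65 and 6.70 in untreated Nos2-/- arrays. All 3 Nos2-/- arrays lay above all 3 WT arrays, and the difference of 0.81 had a 95% confidence interval of 0.60 to 1.02 and an adjusted p of 0.0135 from limma. In the stimulated arrays the values were 6.33, 6.16 and 6.41 in WT and 7.04, 6.68 and 6.90 in Nos2-/- cells. There the groups did not overlap either, and the difference was 0.57 with an adjusted p of 0.00453. The genotype difference after stimulation minus that at rest was -0.24, with an adjusted p of 0.610 from limma and an interval of -0.54 to 0.06.

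Xaf1 encodes an interferon-inducible protein that binds the apoptosis inhibitor XIAP and favours cell death. The brighter of its 2 single-gene probe sets, 1443698_at, gave 10.71, 10.53 and 10.93 in untreated WT arrays and 9.62, 9.96 and 9.98 in untreated Nos2-/- arrays. These did not overlap, and the log2 fold change of -0.87 had a 95% confidence interval of -1.10 to -0.64 and an adjusted p of 0.0135 from limma. After stimulation the values were 12.40, 12.39 and 12.35 in WT against 11.69, 11.70 and 11.66 in Nos2-/- cells, a difference of -0.70 with an adjusted p of 0.00194. This probe set rose upon stimulation by 1.66 in WT and by 1.83 in Nos2-/- cells, with adjusted p-values of 7.6e-09 and 2.44e-09 from limma. The difference of the genotype differences was 0.17, with an adjusted p of 0.764.

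The other Xaf1 probe set, 1443621_at, gave the opposite result. It read 5.70, 5.25 and 5.98 in untreated WT arrays and 11.66, 11.85 and 11.97 in untreated Nos2-/- arrays. The log2 fold change was 6.18, with a 95% interval of 5.87 to 6.49 and an adjusted p of 1.94e-11 from limma over all single-gene probe sets. In stimulated cells it read 6.11, 6.33 and 6.29 in WT and 13.34, 13.31 and 13.43 in Nos2-/- cells, a difference of 7.11. The genotype difference after stimulation minus that at rest was 0.93 on this probe set. Its 95% interval was 0.50 to 1.37, and its adjusted p of 0.0524 from limma narrowly missed the threshold. Within an array, 1443621_at minus 1443698_at was -5.08 ± 0.176 (SD, n = 3) in untreated WT cells and 1.97 ± 0.0795 (SD, n = 3) in untreated Nos2-/- cells, so the probe sets annotated to this gene differed unequally and the direction for Xaf1 as a whole was left undetermined. Of the 9010 genes with more than 1 single-gene probe set, Xaf1 was the only one with probe sets past 1.5-fold in opposite directions. The range over its probe sets was 7.05, against a median of 0.110 and a 99th percentile of 0.427. When the probe sets of each gene were averaged, Xaf1 turned from -0.87 to 2.66. Tested one by one, the single-gene probe sets called were these 2 of Xaf1 and that of Tlcd2, 2 higher and 1 lower, or 0.00858% of those tested.

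**Figure D2:**
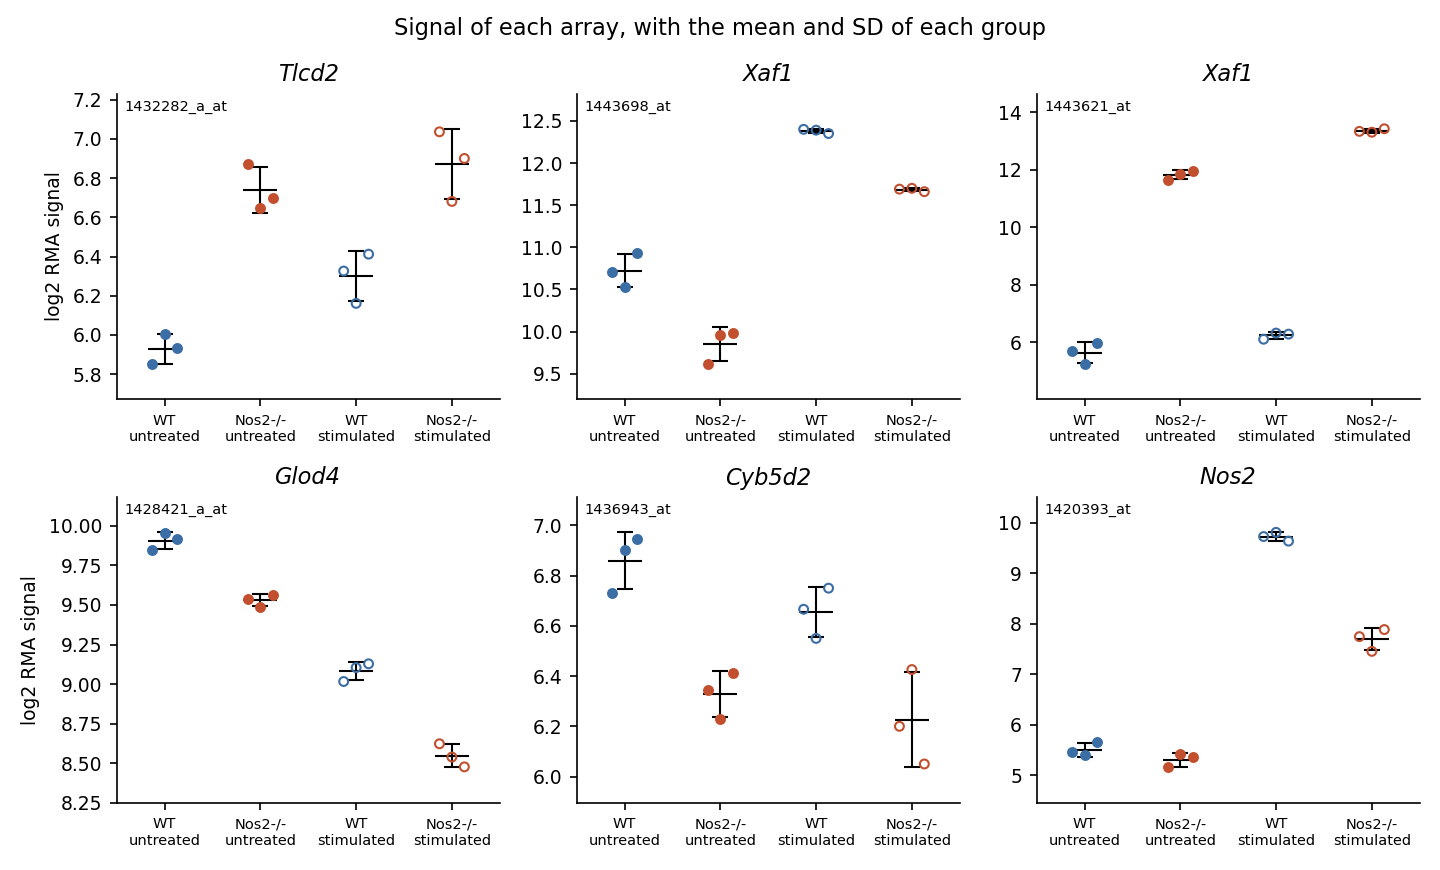
Log2 RMA signal of each array (points) for the probe sets of Tlcd2, Xaf1 (both), Glod4, Cyb5d2 and Nos2 in untreated (filled) and stimulated (open) WT (blue) and Nos2-/- (red) macrophages, with the group mean (wide bar) and SD (whiskers), each panel on its own scale. The 2 Xaf1 panels run in opposite directions, and Nos2 separates only after stimulation.

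The call for Tlcd2 and that for Xaf1 1443698_at rested on few arrays. Both were lost, with 0 genes called, when WT replicate 1, WT replicate 3 or Nos2-/- replicate 1 was left out, with adjusted p-values of 0.0857 to 0.124. Fitted on the 6 untreated arrays alone, Tlcd2 had an adjusted p of 0.0539 and Xaf1 one of 0.344, whereas Xaf1 1443621_at remained called under every alternative that kept single probe sets, at 5.98 to 6.35.

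The reference promoters of the called genes are shown because Xaf1 was induced in both genotypes while differing between them. They run from 250 bases before to 50 bases after the annotated start, on the plus strand, in RefSeq for GRCm38.p6, which is the C57BL/6J sequence. The sequence of the Nos2-/- mice was not measured. Capitals mark matches, on either strand, to AANNGAAA, the core bound by interferon regulatory factors, a motif chosen after the genes were known.

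Xaf1 promoter, chr11:72301379-72301678: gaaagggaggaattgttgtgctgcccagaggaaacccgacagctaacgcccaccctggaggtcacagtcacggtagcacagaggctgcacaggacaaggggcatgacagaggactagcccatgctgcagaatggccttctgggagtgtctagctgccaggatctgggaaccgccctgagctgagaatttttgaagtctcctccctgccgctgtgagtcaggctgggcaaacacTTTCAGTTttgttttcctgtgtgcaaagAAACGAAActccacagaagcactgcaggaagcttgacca

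Tlcd2 promoter, chr11:75467800-75468099: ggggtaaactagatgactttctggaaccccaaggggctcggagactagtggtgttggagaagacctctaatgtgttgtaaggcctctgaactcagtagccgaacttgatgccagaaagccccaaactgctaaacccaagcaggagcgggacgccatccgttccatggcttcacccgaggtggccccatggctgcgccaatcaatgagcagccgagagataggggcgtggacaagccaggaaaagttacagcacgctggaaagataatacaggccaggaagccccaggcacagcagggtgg

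The Xaf1 window held 2 matches, which began 17 bases before and 11 bases after the start, and the Tlcd2 window held 0. Matches to AANNGAAA occurred in 23.9% of 32851 promoter windows of this length. Such matches describe the letters of the window and not the binding of a factor.

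Both called genes lie on chromosome 11 on the same side of Nos2. In the gene order of the RefSeq annotation, Xaf1 stands at position -261 and Tlcd2 at position -128 from Nos2. Within 300 positions on each side, 284 genes were tested, 2 were called and 18 (6.34%) had an unadjusted p under 0.05, beside 4.0% of all genes. Of the 10 genes with the smallest p in the whole comparison, 4 lay in this window, all at lower positions, and the other two were Glod4 and Cyb5d2. On that side 12 of 140 genes (8.57%) had an unadjusted p under 0.05, as against 6 of 144 (4.17%) on the other side. Within 50 positions 0 of 54 genes were called by limma, beside 0.0110% of all genes. Of the 54, 1 (1.85%) had an unadjusted p under 0.05, beside 4.0% of all genes. All 54 intervals lay within 1.5-fold, beside 98.97% of all genes. With so few calls among all genes, 0 calls among 54 say little about the nearest genes.

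Glod4, a member of the glyoxalase domain family at position -104, gave 9.85, 9.95 and 9.92 in untreated WT arrays and 9.54, 9.49 and 9.56 in untreated Nos2-/- arrays. The groups did not overlap, and the log2 fold change of -0.38 missed the threshold with an adjusted p of 0.265 from limma. After stimulation the difference was -0.54 with an adjusted p of 2.44e-04. Cyb5d2, a heme-binding cytochrome b5 domain protein at position -243, gave 6.73, 6.90 and 6.94 in untreated WT arrays and 6.34, 6.23 and 6.41 in untreated Nos2-/- arrays. Its log2 fold change at rest was -0.53 (adjusted p = 0.275) and after stimulation -0.43 (adjusted p = 0.0292), while its second probe set gave 0.15 at rest. Slc43a2, an amino acid transporter at position -124, had a log2 fold change of 0.37 at rest (adjusted p = 1.00) and -0.63 after stimulation (adjusted p = 0.00299). Its other probe sets gave 0.35 and 0.16 at rest and -0.06 and -0.48 after stimulation. These 3 genes were named after their values were seen, so arrays that did not overlap at rest are no separate support for them.

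Log2 fold changes at rest and after stimulation come from separate arrays. The labels do not say whether the untreated and stimulated samples came from separate mice. Over the 140 genes at lower positions the log2 fold changes correlated at r = 0.461. Over the 136 genes left without Xaf1, Tlcd2, Glod4 and Cyb5d2 they correlated at 0.216. Over all genes r was 0.0168. These are correlations across genes, which are not independent replicates, and serve as a description.

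**Figure D3:**
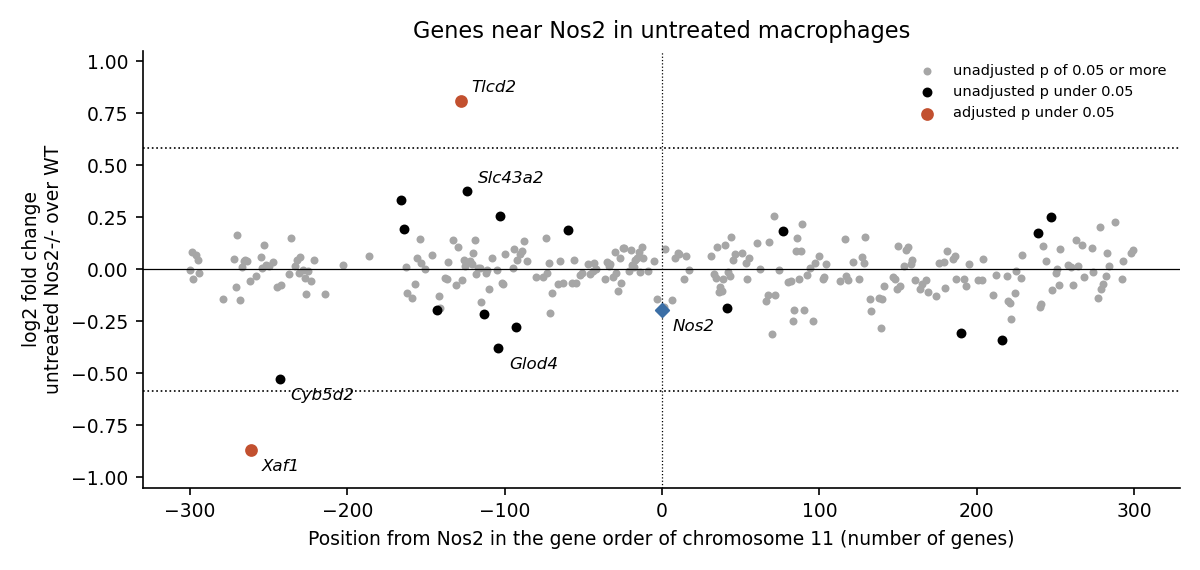
Log2 fold change of untreated Nos2-/- over untreated WT macrophages for 284 genes by their position from Nos2 in the gene order of chromosome 11, with Nos2 as a diamond and dotted horizontal lines at 1.5-fold. Called genes are in colour and genes with an unadjusted p under 0.05 in black. The 4 genes farthest from 0, Xaf1, Tlcd2, Cyb5d2 and Glod4, all lie at lower positions.

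Macrophage identity genes were close in both genotypes. Of 19 measured macrophage genes, 0 were called by limma and 17 had intervals within 1.5-fold. Csf1r, the M-CSF receptor, differed by -0.01, Adgre1 (F4/80) by -0.01 and Cd68, a lysosomal glycoprotein, by -0.04. At an unadjusted p under 0.05 there were 5 macrophage genes, all lower in Nos2-/- cells, as were 2.05% of all genes, and these were Cd163 (-0.21), Aif1 (-0.18), Mertk (-0.31), C1qc (-0.15) and Mrc1 (-0.31). Their functions include uptake of hemoglobin (Cd163), mannosylated ligands (Mrc1) and dying cells (Mertk). The median of the list was -0.09, beside 0.00 for all genes, and leaving out 1 array at a time left 1 to 4 members at that p, with the lowest number without WT replicate 1 or WT replicate 3. The log2 of their summed signal ran from 17.03 to 17.09 over WT arrays and from 17.00 to 17.03 over Nos2-/- arrays. In bulk RNA, fewer cells of a kind and less RNA per cell cannot be told apart.

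Markers of other cells showed no call in limma among 9 neutrophil, 11 dendritic cell, 9 T and NK cell, 9 B cell, 9 mast cell and basophil, 12 fibroblast and 9 erythroid and megakaryocyte genes measured. Of these, 1 had an unadjusted p under 0.05, the dendritic cell gene Xcr1 at 0.23. The neutrophil genes had the widest range of summed signal among these lists, and its log2 ran from 10.01 to 10.59 over WT arrays and from 10.29 to 10.91 over Nos2-/- arrays. S100a8 and S100a9, which encode the subunits of calprotectin, differed by 0.22 and 0.17 and were not called. All 6 sex-linked genes measured, Xist among them at 0.06, and all 7 genes at which C57BL/6 substrains are known to differ, Nnt among them at -0.19, had intervals within 1.5-fold.

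Genes of energy metabolism differed little at rest. For the respiratory chain, 37 of 37 intervals lay within 1.5-fold, beside 98.97% of all genes. Its log2 fold changes ran from -0.04 (Cox5a) to 0.18 (Cox7c), with 31 of the 37 above 0 and a median of 0.03. Intervals also lay within 1.5-fold for 33 of 33 genes of the TCA cycle and pyruvate dehydrogenase. Among these, the subunit genes Pdha1, Pdhb and Dlat stood at -0.02, 0.03 and 0.02. For glycolysis and lactate, 20 of 20 intervals lay within 1.5-fold. Slc2a1 and Slc2a3, which encode the glucose transporters GLUT1 and GLUT3, stood at 0.20 and -0.20, and Acod1, the enzyme that makes itaconate, stood at 0.25. None of these was called by limma, and across the 3 lists 3 genes had an unadjusted p under 0.05, which were Slc2a1, Slc2a3 and Acod1. HIF1a and its targets likewise had 0 of 20 called and 20 of 20 intervals within 1.5-fold.

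The arginine, citrulline and BH4 list had 0 of 19 genes called by limma. Its widest difference was that of Slc7a2, an arginine transporter of the plasma membrane, at 0.43, and Nos3, the endothelial NO synthase, followed at 0.25, both with an unadjusted p under 0.05. Arg1, the arginase that competes for the same substrate, differed by 0.21, and Nos1 by 0.09.

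Nrf2 is a transcription factor that drives antioxidant genes. Its targets had 0 of 30 members called at rest and 30 of 30 intervals within 1.5-fold, whereas 18 of the 30 were called lower in stimulated Nos2-/- cells, where 1.91% of all genes were. Gclm, a subunit of the enzyme that makes glutathione's precursor, was at 0.11 in untreated cells and -2.03 in stimulated cells. Nqo1, a quinone reductase, was at 0.17 and -1.29, and Hmox1, which degrades heme, at -0.09 and -0.94. For each of these 3 genes the difference between the untreated and the stimulated comparison was itself called.

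Inflammatory genes held no call at rest either, although some had wide intervals. In the cytokine and chemokine list, 0 of 37 genes were called by limma, 0 had an unadjusted p under 0.05 and 31 intervals lay within 1.5-fold. Il1b was at -0.39, Il1a at 0.19 and Il6 at 0.02. Of the NF-kB members and inhibitors, 0 of 19 were called and all 19 intervals lay within 1.5-fold. Toll-like receptors and adaptors behaved likewise, with 0 of 18 called and 18 within 1.5-fold, beside 98.97% of all genes. Both lists leaned lower in Nos2-/- cells. Above 0 were 4 of 19 NF-kB genes (median -0.05) and 3 of 18 Toll-like genes (median -0.07). Nos2-/- replicate 3 was above the WT mean for 12 of the 19 NF-kB genes. Cell cycle genes had a median of 0.01 and 0 of 33 called, but 9 of the 33 intervals reached past 1.5-fold. This median joined arrays that stood apart, since Nos2-/- replicate 3 was below the WT mean for 32 of the 33 genes, with a median of -0.42. Nos2-/- replicates 1 and 2 were above it for 31 and 32 genes, with medians of 0.28 and 0.14. The WT arrays ran in the same order. Against the mean of the other WT arrays, WT replicates 1, 2 and 3 had medians of 0.18, 0.05 and -0.17, and WT replicate 3 was below it for 28 genes.

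Interferon-response genes had 1 of 32 members called, Xaf1, and 30 intervals within 1.5-fold. The median was -0.08 and 2 members were above 0. This shift rested on single arrays, since the median ran from -0.19 without WT replicate 2 to 0.01 without Nos2-/- replicate 1. Indeed, WT replicate 2 was below the mean of the other two WT arrays for 31 of the 32 genes, with a median of -0.31. This shift between WT arrays was wider than that between the genotypes.

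Immediate early genes, which are transcribed soon after a cell is stimulated, had 0 of 22 members called by limma. Of the 22, 3 had an unadjusted p under 0.05, all lower, beside 2.05% of all genes in that direction. Egr1, a transcription factor of this class, gave 11.03, 11.08 and 11.17 in WT arrays and 9.78, 10.06 and 11.17 in Nos2-/- arrays. Nos2-/- replicates 1 and 2 were below every WT array and replicate 3 was level with the highest. Over the list, Nos2-/- replicate 1 was below the WT mean for 19 of 22 genes and replicate 2 for 18, while replicate 3 was below it for 5. What set these arrays apart was not tested.

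The p53 target genes had the lowest median of any list, -0.18. Of 17 measured, 0 were called by limma, 5 (all lower) had an unadjusted p under 0.05, beside 2.05% of all genes in that direction, and 9 had arrays that did not overlap, beside 12.6% of all genes. Trp53inp1, a stress-induced regulator of autophagy and cell death, gave 9.69, 9.70 and 9.55 in WT arrays and 9.24, 8.97 and 9.31 in Nos2-/- arrays. Its log2 fold change was -0.47 with an adjusted p of 0.782, and -1.14 after stimulation with an adjusted p of 4.41e-05. These values are from the brighter of its probe sets. The other, 1416927_at, overlapped between the genotypes at rest, at -0.36. After stimulation it gave -0.31 and was not called (adjusted p = 0.209 from limma over all single-gene probe sets). The other members at an unadjusted p under 0.05 were Cdkn1a (-0.29), which encodes the cell cycle inhibitor p21, Ccng1 (-0.20), the cell death gene Pmaip1 (-0.29) and Zmat3 (-0.27). In stimulated cells 4 members of the list were called lower and 1 higher. Among all genes there, 1.91% were called lower and 2.94% in either direction. Besides Trp53inp1, those lower were Cdkn1a (-0.43), Ccng1 (-0.27) and Plk2 (-1.04), and the one higher was the growth arrest gene Gadd45a (0.36), which was at 0.11 at rest. Leaving out 1 array at a time kept the median of the list between -0.20 and -0.14, and 3 to 7 members at the unadjusted threshold.

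**Figure D4:**
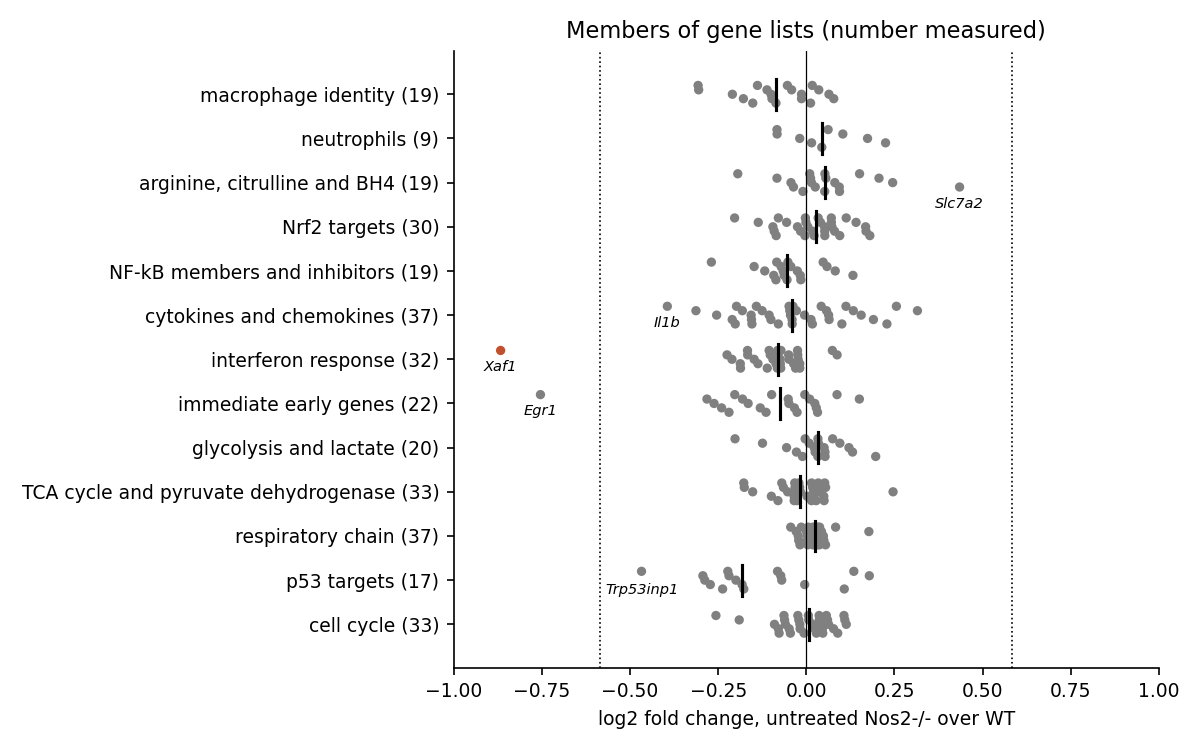
Log2 fold change of untreated Nos2-/- over untreated WT macrophages for each measured member of selected gene lists (points), with the median of the list (black bar), dotted lines at 1.5-fold and the called gene Xaf1 in colour. Respiratory chain members lie between -0.04 and 0.18, and the p53 target median lies at -0.18.

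The remaining lists held 0 called genes by limma, and were alternative activation (24 measured), iron and heme (19), ATF4 and integrated stress (18), heat shock chaperones (14), cholesterol and lipid (23), MHC class II (12), phagocyte NADPH oxidase (7), lysosome (20), integrins and adhesion (17), chemokine and complement receptors (13) and matrix metalloproteinases (12). Among them, intervals lay within 1.5-fold for all genes but Mrc1, Slc40a1, Lcn2 and P2ry12. Slc40a1, the iron exporter ferroportin, gave 8.46, 8.52 and 8.29 in WT arrays and 7.92, 7.95 and 8.20 in Nos2-/- arrays. The difference of -0.40 at rest missed the threshold with an adjusted p of 0.782, while that of -2.96 after stimulation had an adjusted p of 1.19e-09. Over all lists together, 592 genes were measured, 1 was called, 31 (5.24%) had an unadjusted p under 0.05 and 565 intervals (95.4%) lay within 1.5-fold.

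Outside the lists and the region of Nos2, the smallest p-values belonged to genes that were not called, and these were named after their values were seen. F13a1, the A subunit of coagulation factor XIII, gave 9.96, 9.71 and 9.94 in WT arrays and 9.42, 9.33 and 9.36 in Nos2-/- arrays, a log2 fold change of -0.50 (adjusted p = 0.265 from limma). Cav1, which encodes the coat protein of caveolae, gave 10.80, 10.92 and 10.81 against 11.13, 11.18 and 11.22, a log2 fold change of 0.33 (adjusted p = 0.573). In both genes the arrays of the genotypes did not overlap, as was so for 12.6% of all genes. Genes picked by their values on these same arrays tend not to overlap, so here and below this is no separate support. Zc3h6 (-0.40), Ldlrad3 (-0.57), Ninl (-0.46) and Nipal3 (-0.49) were also lower in all 3 Nos2-/- arrays without passing the test. Gpr34, a receptor for lysophosphatidylserine, gave 7.85, 7.70 and 7.59 in WT arrays and 7.02, 6.80 and 7.27 in Nos2-/- arrays, which did not overlap either. Its log2 fold change of -0.68 at rest (adjusted p = 0.871) stood against 1.12 in stimulated cells (adjusted p = 0.00184).

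Lastly, it was asked whether genes that differed between the genotypes in stimulated cells already differed at rest. In stimulated cells 535 genes were called, or 2.94%, with a median size of 0.450. The same 535 genes had a median size of 0.0569 at rest, close to the 0.0546 of all genes. Of them, 524 (97.9%) had an interval within 1.5-fold at rest, beside 98.97% of all genes. Of the 535, 2 were called at rest, Tlcd2 and Xaf1, which were 100% of the genes called at rest and 0.374% of those called in stimulated cells. The sign at rest was that of the stimulated comparison for 269 genes, or 50.3%. An unadjusted p under 0.05 at rest was found for 43 of the 535 genes (8.04%), beside 4.0% of all genes. Of these 43, 28 had the same sign and 15 the opposite sign. Both comparisons used 1 estimate of the spread per gene, and a small spread lowers the p in both. Genes called in stimulated cells can therefore exceed 4.0% at rest without a wider difference there. The genotype difference itself differed between rest and stimulation for 178 genes, or 0.978%, and neither Tlcd2 nor Xaf1 was one of them.

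**Figure D5:**
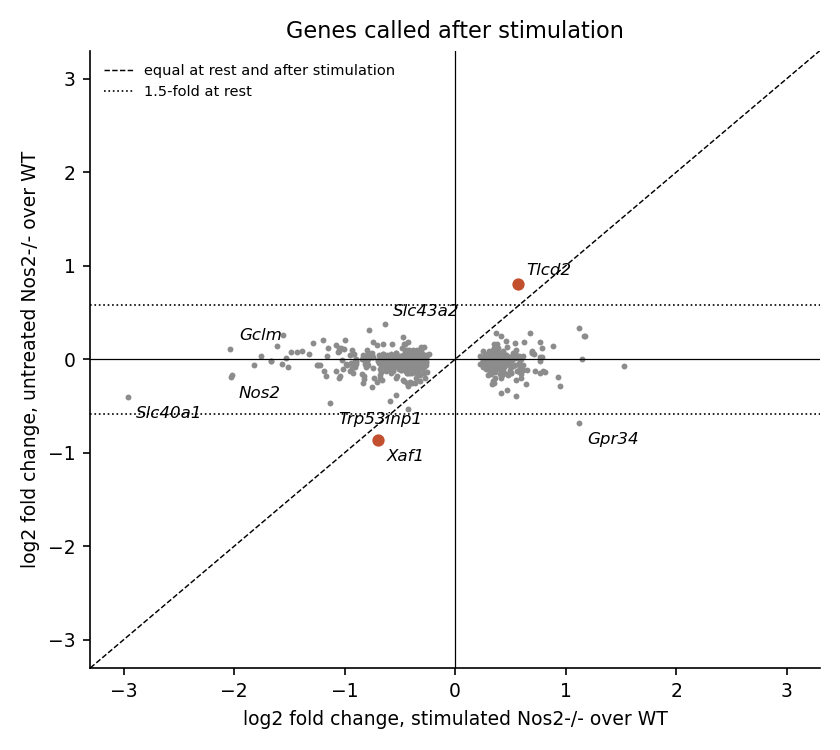
Log2 fold change of Nos2-/- over WT in stimulated (horizontal axis) and untreated (vertical axis) macrophages for the 535 genes called in stimulated cells, with a dashed line of equality and dotted lines at 1.5-fold at rest. All points lie between the dotted lines except Tlcd2 and Xaf1 (in colour), which lie near the line of equality, and Gpr34, which was lower at rest and higher in stimulated cells.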

How the data were processed

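The authors hybridized 1 Affymetrix Mouse Genome array per sample, processed the images with RMA in Partek (version not given in the sources used here) and deposited log2 signals, with no pooling and no filter. No genome build was named. Of 45101 probe sets, 64 controls were left out. Of the other 45037, 34945 name 1 gene, 932 several and 9160 none. For 18031 of the 18193 genes the name was taken through an identifier in RefSeq. Array medians ran from 5.14 to 5.21, and no value was missing. Precision is limited by the number of arrays, since there are no counts.

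Arrays were grouped by their titles. A linear model of 4 group means over the 12 arrays, which jointly estimate the spread, was fitted by lmFit and eBayes of limma 3.58.1 (R 4.3.3) and tested on both sides. Calls needed an adjusted p under 0.05 (Benjamini-Hochberg) and no fold, and dim probe sets were kept. The published thresholds after analysis of variance, 1.5-fold with a false discovery rate of 0.5, were an alternative. The fit was tested on simulated data. Alternatives were the 6 untreated arrays alone, a fit without moderation, an intensity trend, median centring, quantile normalization, a filter on dim signals, averaged probe sets per gene, dropping of _s_at and _x_at probe sets, a replicate block and omission of each untreated array. List medians, the other Xaf1 probe set and the differences between the comparisons were added to these after the data were seen. Python 3.11.15 and matplotlib 3.10.9 prepared tables and figures.

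The comparison, lists and region were chosen with earlier results of these data known. The genes named were the 12 largest changes in each direction among called genes whose arrays did not overlap, Nos2, called list members, called genes within 50 positions of Nos2, and the first 3 measured members of a list with no call, of which some are named in the text. Other list members and genes were named after their values were seen. Lists were counted with no set test. Gene order and promoters were those of RefSeq GRCm38.p6.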

Additional observations from a re-analysis of the deposited data

Results flagged for a closer look

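For 15 of the genes named by the rule or after their values were seen, the genotype difference after stimulation differed from that at rest at an adjusted p under 0.05 from limma (an interaction between genotype and stimulation). The values are the difference after stimulation minus that at rest, on the log2 scale. They were below 0 for Slc40a1 (-2.56), Gclm (-2.15), Nos2 (-1.84), Hspa1a (-1.48), Nqo1 (-1.46), Hspa1b (-1.40), Arg1 (-1.20), Slc43a2 (-1.01) and Hmox1 (-0.84). They were above 0 for Gpr34 (1.81), Ldlrad3 (0.77), Ninl (0.68), Rel (0.65), Nfkbiz (0.60) and Klf3 (0.58). At rest none of the 15 was called. Gpr34, Ldlrad3, Ninl, Nfkbiz and Klf3 were lower in all 3 untreated Nos2-/- arrays, at -0.68, -0.57, -0.46, -0.27 and -0.23, and above 0 in the stimulated comparison, at 1.12, 0.21, 0.22, 0.33 and 0.35. For Nfkbiz this held for the brightest of its 3 probe sets, as the others overlapped between the genotypes at rest, at -0.06 and -0.03, with interaction adjusted p-values of 0.150 and 0.102 from limma. For Slc43a2 the interaction was called only on the brightest of its 3 probe sets. The others gave -0.64 and -0.41, with interaction adjusted p-values of 0.130 and 0.731 from limma. The mean of the probe sets of a gene moved the difference at rest to -0.12 for Nfkbiz and to -0.06 for Klf3. For Ldlrad3 and Ninl the stimulated difference was not called, with adjusted p-values of 0.374 and 0.263 from limma. Their stimulated signals were dim. Ldlrad3 averaged 4.20 in WT and 4.41 in Nos2-/- cells, and Ninl 2.85 and 3.07, where the lowest value on any array was 2.13.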

How the results depend on the processing

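The counts of genes higher and lower, 1 and 1, stayed at those values under median centring, quantile normalization, the filter on dim signals, leaving out _s_at and _x_at probe sets, the replicate block (18019 genes within 1.5-fold) and the printed thresholds. They were 0 and 0 in the 6 untreated arrays alone and without moderation, 2 and 3 with an intensity trend, and 2 and 0 with the mean of the probe sets of a gene, where Xaf1 reversed from -0.87 to 2.66. The trend added Glod4 (adjusted p = 0.0321), F13a1 (0.0321) and Cav1 (0.0365) to the calls from limma. Of single-gene probe sets, 2 higher and 1 lower, the untreated arrays alone gave 2 and 0, the fit without moderation 1 and 0, and the trend 3 and 4. Leaving out 1 array at a time gave 0 to 1 genes higher, 0 to 2 lower, 1 to 2 probe sets higher and 0 to 3 lower, and 17818 to 17854 genes within 1.5-fold. The filter on dim signals left 8999 genes within 1.5-fold because fewer genes were tested. Over all alternatives Tlcd2 ran from 0.74 to 0.86, Glod4 from -0.41 to -0.35, and Xaf1 1443621_at from 5.98 to 6.35 with a call in 14 of 14. The same replicate numbers gave deviations that correlated at 0.106, 0.0321 and 0.211 between the genotypes. Unlike numbers gave -0.155 to 0.0767. The main fit took no arrays as pairs, and whether arrays of the same number share an effect was not tested. The replicate block changed no count of calls. Dim probe sets limit what can be seen, and no background measure was used here.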

Other observations

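Of the 9160 probe sets that name no gene and the 932 that name several, 0 were called between the untreated genotypes by limma when all 45037 probe sets were fitted together. That fit called 2 probe sets higher and 1 lower.

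Egr3, an immediate early transcription factor, had the second widest range over the probe sets of a gene, with log2 fold changes of -1.19 and 0.09 that were not called.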
